A study of Mus musculus with 4 samples.

Results

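Platelet-activating factor (PAF) is an ether phospholipid that carries an acetyl group and acts as a short-lived signal of inflammation. In the remodelling pathway a phospholipase A2 cuts a fatty acid from a membrane phospholipid, an acetyltransferase adds acetate to the lyso-PAF that results, and acetylhydrolases remove the acetate again. Acyltransferases of the same family return fatty acids to lysophospholipids and so set the fatty acid composition of membranes, a cycle known after Lands. This account follows 10 mouse genes of PAF turnover and phospholipid remodelling, a list of names chosen by role once the difference of Lpcat2 between Ctcfl and control arrays was known: the lysophospholipid acyltransferases Lpcat1, Lpcat2, Lpcat3, Lpcat4 and Mboat7, the PAF hydrolase genes Pafah1b2, Pafah1b3 and Pafah2, the PAF receptor gene Ptafr and the phospholipase gene Pla2g4a. All 10 were among the 19938 named genes measured, each by 1 probe set, the group of array probes that is summarised to 1 value.

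RNA came from clone p19 of NIH3T3, an established line of mouse fibroblasts, with the vectors pBI-EGFP-FLAG-mCtcfl and pTA-N integrated in all 4 samples. The transgene codes for CTCFL (BORIS), a relative of the DNA-binding protein CTCF that is normally found in the testis. In this Tet-Off system doxycycline is meant to keep the transgene off. Both control samples had 2 µg/ml doxycycline in their medium, which the 2 Ctcfl samples lacked for 48 h. Removal of the drug and expression of the vector therefore cannot be told apart, and 1 clone stands for the line. Whether the replicates came from separate cultures is not stated in the labels, so errors and p-values cover the spread between the arrays at hand, and this could be technical.

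Values are RMA expression on the log2 scale, where a difference of 1 is 2-fold, and only 4 arrays limit their precision. Across genes the arrays correlated at 0.995 to 0.997 (Pearson), and no array was a copy of another. The labels were checked on Ctcfl itself. It read 7.77 and 7.71 on the control arrays and 10.37 and 10.35 on the Ctcfl arrays. The control values lay above the upper quartile of all probe sets on those arrays (7.43 and 7.40). Whether they reflect expression in the presence of doxycycline or background of the probe set was not tested. Fibroblast markers fixed as a list spanned values from 2.82 to 12.18: Col1a1, Col1a2, Fn1, Vim, Thy1 and S100a4 were above 10 on every array, while Fap, Postn and Lum stayed at or below 4.13, near or under the lower quartile of all probe sets (4.09 to 4.12). Of these 12 markers limma called 0. Lower values on both Ctcfl arrays than on both controls were found for 8 of them, against 20.6% of all genes, and 3 had an unadjusted p under 0.05, against 10.7% of all genes in either direction: Pdgfrb (-0.56), Col3a1 (-0.38) and Pdgfra (-0.29). The part of these shifts in the values of the 10 genes was not tested. Of 7 epithelial and 7 endothelial markers it called 0 as well (0 unadjusted in either list). The fit over all genes (limma, Ctcfl against control, adjusted p under 0.05) called 9 genes, 0.0451% of those tested. Among the 10 members it called 1, Lpcat2, which was higher in the Ctcfl arrays, as were 0.0301% of all genes by that rule. The members were picked with this contrast in view, so that count and the differences that follow are a description and carry no test.

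Lpcat2 encodes an enzyme with both lyso-PAF acetyltransferase and lysophosphatidylcholine acyltransferase activity, best known from macrophages. Its values were 5.04 and 5.24 on the control arrays and 7.26 and 7.34 on the Ctcfl arrays. Both Ctcfl arrays lay more than 2 log2 units above both controls, while replicates differed by 0.20 and 0.08. In the control cells the probe set sat at the middle of its array, close to the median of all probe sets (5.20 and 5.21). There were no detection calls, so whether these control values exceed background is unknown, and the fold below is one of array signal. The group means were 5.14 ± 0.14 and 7.30 ± 0.06 (log2, SD, n = 2 each), a 4.47-fold rise (log2 difference 2.16, SE 0.10, 95% interval 1.91 to 2.41). Leaving out each array in turn gave differences from 2.06 to 2.26. The call by limma was lost in each of those fits and with a replicate block, all of which leave 1 residual degree of freedom and called 0 genes (1329 to 1663 unadjusted without an array, 1468 with the block).

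**Figure D1:**
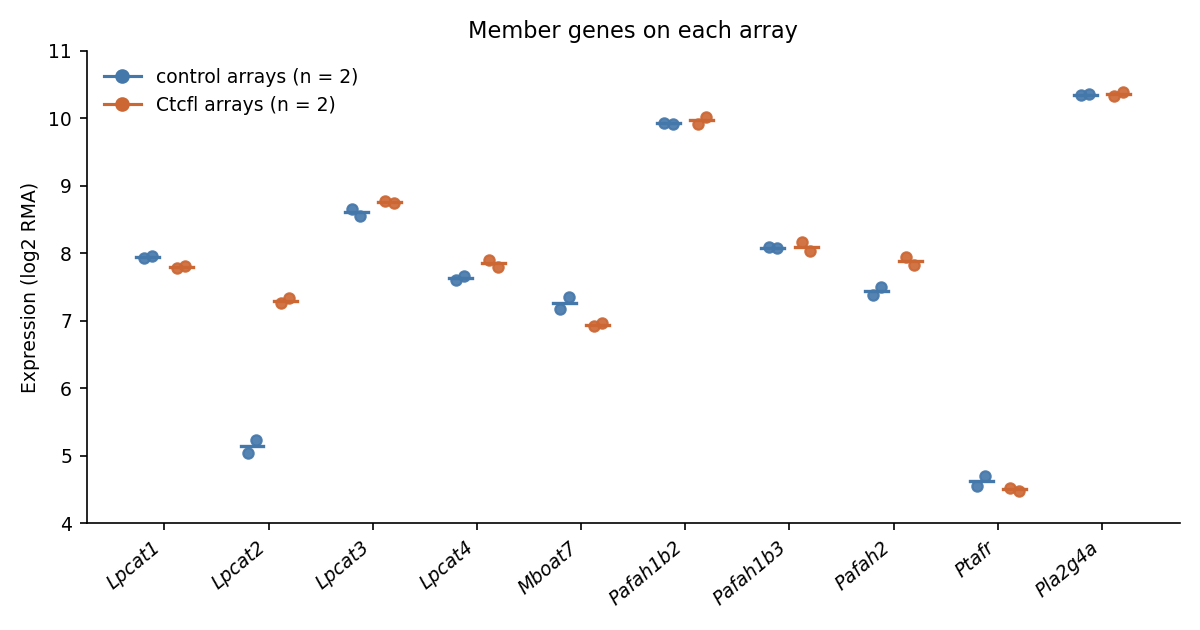
Expression of the 10 member genes on the 4 arrays (vertical axis, log2 RMA); points are single arrays, control in blue and Ctcfl in orange, and bars are group means. Lpcat2 goes from 5.14 to 7.30 while the group means of the other members differ by at most 0.45; heights of different genes are not comparable, since probe sets differ in brightness.

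Since macrophages are the cells in which Lpcat2 is best known, markers of leukocytes were read beside it. Of 12 such genes limma called 0, against 0.0451% of all genes. An unadjusted p under 0.05 was found for 1, against 10.7% of all genes. This was Fcer1g, at 4.16 and 4.34 on the control arrays and 4.51 and 4.60 on the Ctcfl arrays. Ptprc, the pan-leukocyte antigen CD45, read 4.10 to 4.18, and Adgre1, a macrophage surface receptor, 3.82 to 3.99. By group means 6 of the 12 were higher and 6 lower in the Ctcfl arrays, from -0.23 for Csf1r to 0.31 for Fcer1g. The mean of the 12 markers was 4.70 and 4.81 on the control arrays and 4.76 on both Ctcfl arrays, so the groups overlapped. In RNA from whole cultures, a change in the number of cells that express a gene and a change in RNA per cell cannot be told apart.

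The promoter of Lpcat2 is shown because the induced protein binds DNA through zinc fingers much like those of CTCF, beside those of Lpcat1, the closest relative in activity, and Pafah2, the member with the next largest difference. The sequences are from RefSeq on GRCm38.p6, each on the + strand and ending before the first base of the gene: chr8:92855083-92855312 for Lpcat2, chr13:73466981-73467230 for Lpcat1 and chr4:134396070-134396319 for Pafah2. Capitals mark AGGGGGC, part of the core of the CTCF consensus, letters that were chosen after the sequences had been seen.
Lpcat2: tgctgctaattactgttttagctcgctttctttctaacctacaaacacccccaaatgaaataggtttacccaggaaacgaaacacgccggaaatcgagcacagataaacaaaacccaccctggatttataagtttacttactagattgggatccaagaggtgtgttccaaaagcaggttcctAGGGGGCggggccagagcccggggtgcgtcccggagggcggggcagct
Lpcat1: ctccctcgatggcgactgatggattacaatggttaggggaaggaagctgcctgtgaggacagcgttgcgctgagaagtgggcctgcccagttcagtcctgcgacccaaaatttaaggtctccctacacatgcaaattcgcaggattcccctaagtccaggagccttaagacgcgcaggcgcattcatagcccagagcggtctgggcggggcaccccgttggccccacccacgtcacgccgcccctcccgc
Pafah2: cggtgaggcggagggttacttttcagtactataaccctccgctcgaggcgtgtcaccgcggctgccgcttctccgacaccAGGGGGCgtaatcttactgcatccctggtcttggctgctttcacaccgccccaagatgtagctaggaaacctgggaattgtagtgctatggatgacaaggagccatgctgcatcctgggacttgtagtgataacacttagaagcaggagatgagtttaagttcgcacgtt

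Of the 10 members, 9 had promoter windows in the RefSeq table, 16 in all, each reaching from 250 bases before a start to 50 after it. AGGGGGC stood on 1 strand or the other in 10.6% of all 32851 windows of that length, and in 3 of the members' 16 windows, 1 each of Lpcat2, Pafah2 and Pafah1b2. Expression of the last of these differed by 0.05 between groups. A longer and looser core of 12 letters, which can overlap the first motif (CC, any 3 letters, AG, any 2 letters, then GGC), stood in 8.61% of all windows and in none of the members'. A match of letters is not a bound site, and binding was not measured. The Lpcat2 window held 15 CpG dinucleotides and that of Lpcat1 25, against a median of 7 (quartiles 3 and 20) over all windows. Lpcat4 had 45, the only start of Ptafr 6, and the 2 starts of Pla2g4a 2 and 6.

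Along the chromosome, the gene of a small calpain subunit, Capns2, lies inside Lpcat2 in the RefSeq table of GRCm38.p6, on the same strand. Capns2 read 4.42 and 4.72 on the control arrays and 5.84 and 5.92 on the Ctcfl arrays, a log2 difference of 1.31 (SE 0.12, limma adjusted p = 0.0554), which did not pass. Because the genes overlap, signal from unspliced Lpcat2 RNA cannot be told apart from Capns2 RNA on this array. Mmp2, the gelatinase gene just before Lpcat2, read 10.13 and 10.18 against 10.38 and 10.23, a difference of 0.15 (SE 0.09, adjusted p = 0.598). Slc6a2, the noradrenaline transporter gene after it, read 4.02 and 4.41 against 4.47 and 4.19, with overlapping groups (0.12, SE 0.16, adjusted p = 0.825). The next measured genes outward, Irx6 and Ces1a, had differences of -0.08 and -0.10, and neither passed.

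**Figure D2:**
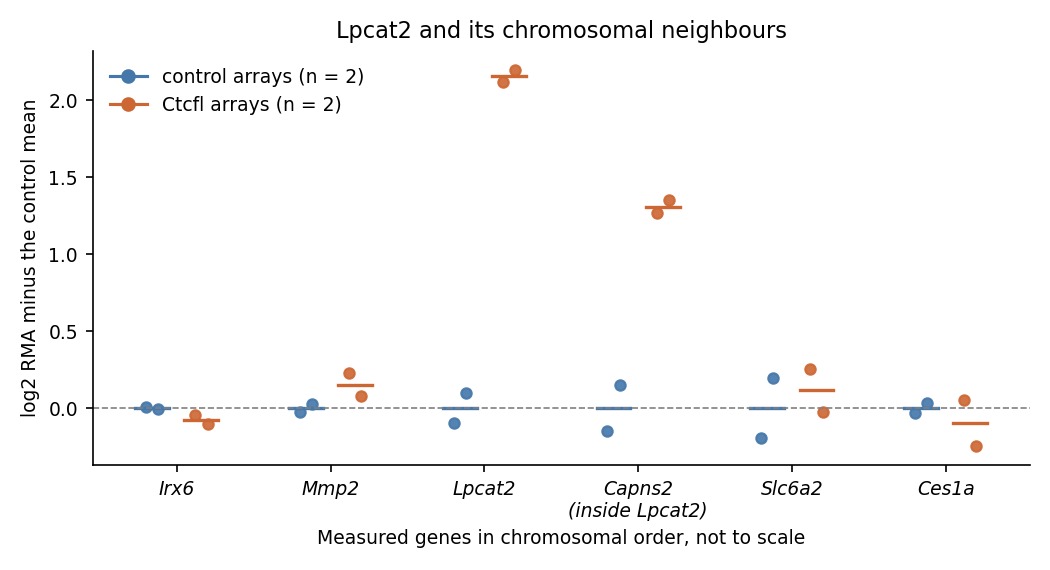
Values of Lpcat2 and the nearest measured genes on its chromosome, in order, on each array (vertical axis, log2 RMA minus the gene's control mean); points are single arrays and bars are group means. Lpcat2 (2.16) and Capns2 (1.31), which lies inside it, stand above their controls, and the means of the 4 flanking genes lie between -0.10 and 0.15.

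Among the other acyltransferases, no member was called. Lpcat1, which makes the saturated phosphatidylcholine of lung surfactant and also has lyso-PAF acetyltransferase activity, read 7.93 and 7.96 on the control arrays and 7.78 and 7.81 on the Ctcfl arrays. Its Ctcfl arrays were both lower, with a log2 difference of -0.15 (SE 0.08, interval -0.35 to 0.05). Thus of the pair of enzymes known to acetylate lyso-PAF, 1 was called higher and the other had a small negative value.

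Lpcat4, an acyltransferase of lysophosphatidylcholine and lysophosphatidylethanolamine, read 7.60 and 7.66 against 7.90 and 7.80. Both Ctcfl arrays were above both controls, by 0.22 on average (SE 0.09, interval 0.01 to 0.43). Lpcat3, from the separate membrane-bound O-acyltransferase family, incorporates polyunsaturated fatty acids into phosphatidylcholine. It read 8.66 and 8.55 on the control arrays and 8.78 and 8.74 on the Ctcfl arrays, again without overlap (0.16, SE 0.09, interval -0.06 to 0.37).

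Mboat7, of the same family as Lpcat3, adds arachidonate to lysophosphatidylinositol. It read 7.17 and 7.36 on the control arrays and 6.92 and 6.97 on the Ctcfl arrays, so both Ctcfl arrays were lower. The difference was -0.32 (SE 0.10, interval -0.56 to -0.08), the most negative among the members, and ranged from -0.42 without control replicate 1 to -0.23 without control replicate 2. The spread between its control arrays, 0.19, was nearly as wide as that of Lpcat2 (0.20).

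The PAF hydrolases had unlike values. Pafah2 encodes the intracellular type II acetylhydrolase, a single-chain enzyme that also removes oxidised fatty acids from phospholipids. It read 7.39 and 7.50 on the control arrays and 7.95 and 7.83 on the Ctcfl arrays, without overlap. The difference was 0.45, or 1.36-fold (SE 0.09, interval 0.22 to 0.67), and it was not called in the fit as described. With an intensity trend and robust variances it was, as 1 of 479 genes (2.40% of those tested).

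Pafah1b2 and Pafah1b3 encode the catalytic subunits of the type I acetylhydrolase. Pafah1b2 read 9.93 and 9.92 against 9.92 and 10.02, and the groups overlapped (0.05, SE 0.09, interval -0.16 to 0.25). Pafah1b3 read 8.09 and 8.08 against 8.17 and 8.03, with the control arrays between the Ctcfl arrays (0.02, SE 0.09, interval -0.21 to 0.24). Their partner Pafah1b1, the regulatory subunit also known as LIS1, read 8.69 and 8.72 against 8.66 and 8.86 and did not pass (0.06, SE 0.10, limma adjusted p = 0.870). All 3 subunit genes of the type I enzyme thus had overlapping groups, with intervals that leave room for differences of up to about 0.30 upward for Pafah1b1 and 0.25 for Pafah1b2.

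At the ends of the pathway, Pla2g4a encodes the calcium-dependent cytosolic phospholipase A2 that releases arachidonate and supplies lyso-PAF. It read 10.34 and 10.36 on the control arrays and 10.33 and 10.39 on the Ctcfl arrays, so the controls lay between the Ctcfl arrays. Its difference was 0.01 (SE 0.08, interval -0.19 to 0.21). Ptafr, the G protein-coupled receptor for PAF, read 4.56 and 4.70 against 4.53 and 4.48. Both Ctcfl arrays were lower by a small margin (-0.13, SE 0.09, interval -0.35 to 0.10), and all 4 values lay below the median and above the lower quartile of the probe sets on their array. The 12 leukocyte markers, listed for cells other than fibroblasts, spanned values from 3.61 to 6.39. Without detection calls, whether the Ptafr values exceed background is unknown.

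Over the 10 members, 7 had groups that did not overlap, 4 higher and 3 lower, against 41.1% of all genes (20.6% in each direction). The median difference was 0.03 for the 10 members and 0.02 for the 9 without Lpcat2, against 0.00 for all genes. The median size of the difference, whatever its sign, was 0.15 for the members and 0.10 for all genes. Replicates were close: the median SD within groups was 0.06 for the members and 0.09 for all genes. The members were also brighter, with means of 7.67 to 7.95 on the 4 arrays against 6.04 to 6.07 for all genes. The part of brightness in the SDs and in the counts without overlap was not tested. Pafah1b2, Pafah1b3 and Pla2g4a changed sign when single arrays were left out, and the last 2 also with median centring.

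**Figure D3:**
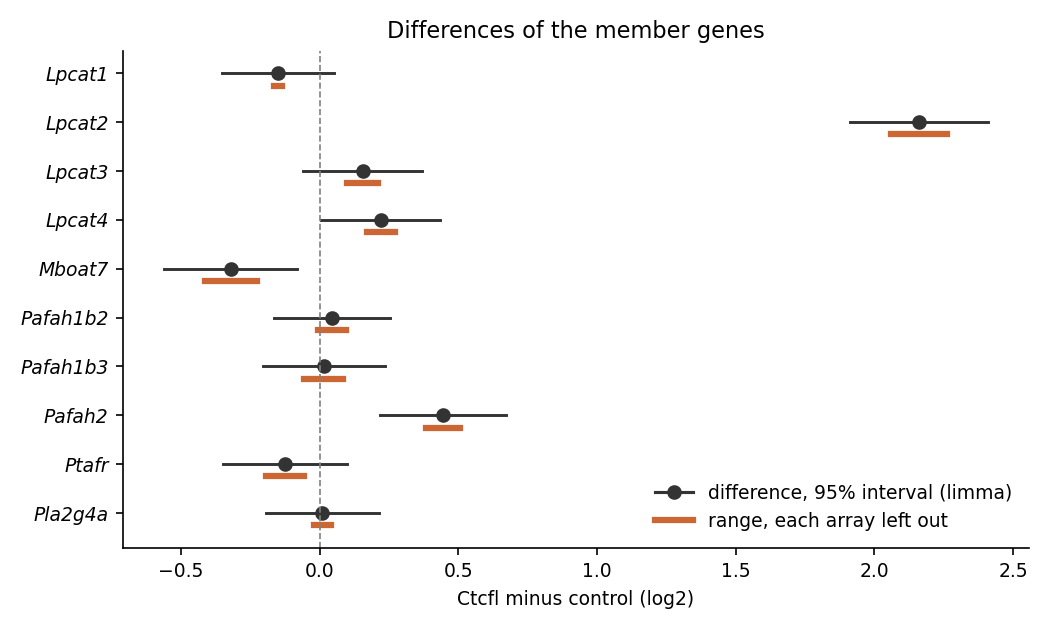
Log2 difference between Ctcfl and control arrays (horizontal axis) for each member; black points and lines are the limma estimate and its 95% interval, and orange bars span the values with each array left out in turn. The interval of Lpcat2 runs from 1.91 to 2.41, those of Pafah2, Lpcat4 and Mboat7 leave out 0, and the other 6 include it. An interval that leaves out 0 amounts to an unadjusted p under 0.05 (limma), found for 10.7% of all genes. The members were picked with this contrast in view, so the intervals carry no test.

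The wider pathway was read from 5 lists of related genes, drawn up by role with earlier results of these data known. Of 100 measured genes on them, limma called 0, and 12 had an unadjusted p under 0.05, 5 higher and 7 lower, against 10.7% of all genes. Their median difference was 0.00, as for all genes.

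Among 15 other lysophospholipid and glycerol-3-phosphate acyltransferases, 0 passed (1 unadjusted), with a median of -0.01. Gpat3, which starts triglyceride and phospholipid synthesis, read 6.73 and 6.75 on the control arrays and 7.09 and 7.01 on the Ctcfl arrays (0.31, SE 0.08, adjusted p = 0.348). Agpat4, which makes phosphatidic acid, read 6.38 and 6.04 against 6.37 and 6.63, with overlapping groups (0.29, SE 0.15, adjusted p = 0.529). Mboat1 and Mboat2, relatives of Lpcat3 and Mboat7, had differences of 0.15 and -0.01.

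Of 27 other phospholipases A2 and PAF-hydrolysing genes, 0 passed (3 unadjusted), with a median of 0.03. The secreted PAF acetylhydrolase Pla2g7, a homolog of Pafah2, read 7.52 and 7.53 on the control arrays and 7.09 and 7.21 on the Ctcfl arrays. Its difference was -0.38 (SE 0.09, adjusted p = 0.300), against 0.45 for Pafah2. For both genes the groups did not overlap, but in opposite directions. Pla2g4f, a relative of Pla2g4a, read 4.17 and 4.23 against 4.38 and 4.48 (0.23, SE 0.09, adjusted p = 0.444).

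The 14 genes of ether lipid and de novo PAF synthesis included 0 past the threshold (0 unadjusted), with a median of 0.03. Dhrs7b, a reductase of the ether lipid route in peroxisomes, read 8.13 and 8.03 against 8.30 and 8.21 (0.18, SE 0.09, adjusted p = 0.536). Agmo, the oxygenase that cleaves alkyl glycerols and lyso-PAF, read 6.53 and 6.39 against 6.22 and 6.41, with overlapping groups (-0.15, SE 0.11, adjusted p = 0.653). Chpt1 and Cept1, which can complete PAF by the de novo route, had differences of 0.12 and 0.08.

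Among 22 genes of arachidonate activation and eicosanoid synthesis, 0 passed (1 unadjusted), with a median of -0.03. Acsl6, which activates long-chain fatty acids with coenzyme A, read 4.95 and 5.11 on the control arrays and 5.55 and 5.44 on the Ctcfl arrays (0.47, SE 0.10, adjusted p = 0.263). Elovl5, an elongase of polyunsaturated fatty acids, read 9.65 and 9.64 against 9.47 and 9.44 (-0.19, SE 0.08, adjusted p = 0.479). The inducible cyclooxygenase gene Ptgs2, which acts on the arachidonate that Pla2g4a releases, had a difference of -0.13 and did not pass.

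Receptors for lipid mediators and genes of lysophosphatidate turnover held the largest differences within the 5 lists, though 0 of 22 passed, with a median of -0.03. An unadjusted p under 0.05 (limma) was found for 7 of them, 2 higher and 5 lower, against 10.7% of all genes in either direction. Gdpd1, a lysophospholipase D that can act on lyso-PAF and other lysophospholipids, read 7.74 and 7.65 on the control arrays and 8.36 and 8.32 on the Ctcfl arrays. Its difference was 0.65 (SE 0.09, adjusted p = 0.132), with both Ctcfl arrays above both controls. Ptgfr, the prostaglandin F2-alpha receptor, read 5.49 and 5.48 against 4.88 and 4.98, a difference of -0.56 (SE 0.09, adjusted p = 0.163).

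**Figure D4:**
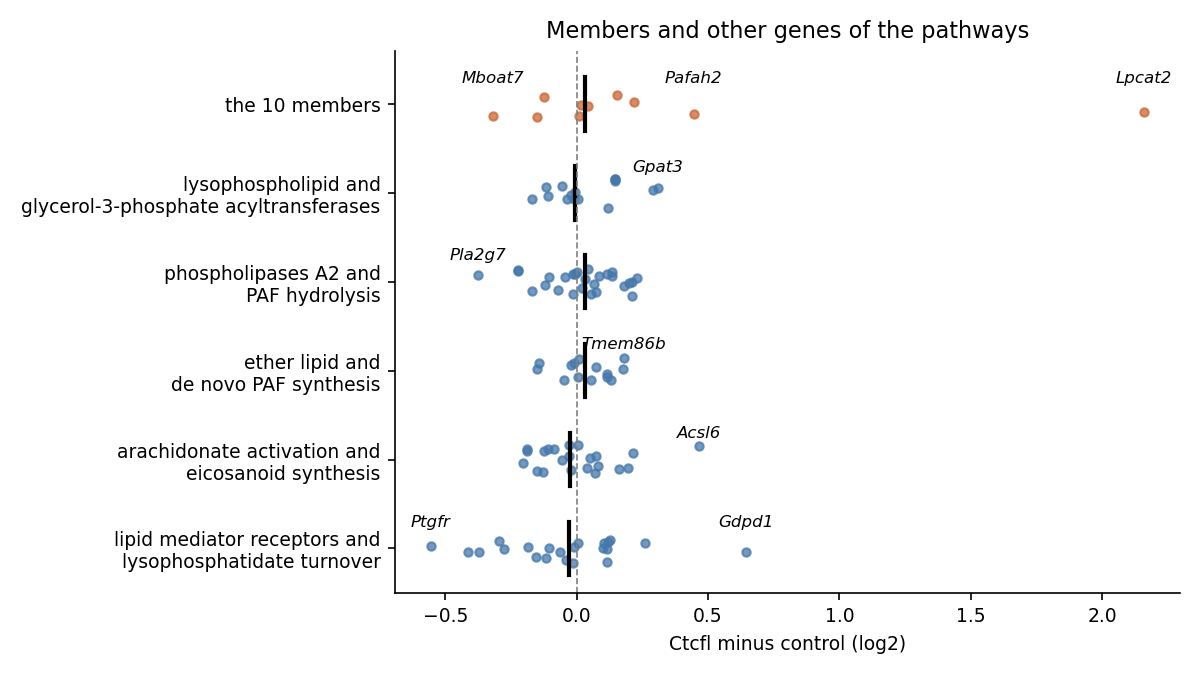
Log2 difference between Ctcfl and control arrays (horizontal axis) for the 10 members (orange) and for the genes of 5 pathway lists (blue); each point is 1 gene, black bars are medians, vertical scatter within a row has no meaning, and the genes with the largest differences are named. Lpcat2, whose difference was known before the members and lists were chosen, lies at 2.16. The 100 listed genes run from -0.56 for Ptgfr to 0.65 for Gdpd1.

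Genes whose values, centred on their own mean, lay closest to those of Lpcat2 over the 4 arrays were Ctcfl (Euclidean distance 0.50 on the log2 scale), Gstm5 (0.61), Col5a2 (0.83), Capns2 (0.85) and Slc29a3 (1.04), with predicted genes, clones and microRNA genes passed over. Each was higher on both Ctcfl arrays than on both controls. With 4 arrays in 2 groups this likeness mostly restates the size of the difference between groups: 2.62 for Ctcfl, 2.77 for the glutathione transferase gene Gstm5, 1.36 for the collagen gene Col5a2 and 1.12 for the nucleoside transporter gene Slc29a3.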

How the data were processed

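The table deposited by the authors holds log2 values from RMA, run in Expression Console per the labels; RMA corrects background, quantile-normalises arrays and summarises probes. Its version is not given in the sources used here. Of 35512 probe sets, 1 lacked a value. Genes were named by the array's annotation: 21789 probe sets had 1 gene symbol, 1621 several and 12101 none listed. The brightest probe set stood for a gene, which left 19938 genes, with no filter on dim ones.

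Groups were compared in R 4.3.3 with limma 3.58.1 (lmFit, eBayes, two-sided, Benjamini-Hochberg over all genes, threshold 0.05). A run on simulated data checked only that large differences were called. Its variances were drawn from this same fit, so it gives no error rate for these arrays. Alternatives were quantile normalisation, median centring, a filter on dim genes, averaging probe sets per gene, robust variances with an intensity trend (statmod 1.5.0), a replicate block and each array left out. Members and lists were chosen with earlier results of these data known. Named genes were the members, Ctcfl, neighbours of Lpcat2, the 5 genes nearest to it in profile and 2 genes per list by smallest p. For the nearest genes, predicted genes, clones and microRNA genes were passed over. Mboat1, Mboat2, Pafah1b1, Chpt1, Cept1, Ptgs2, Ptger4 and the markers named singly from the marker lists were chosen after their values were seen. Figures used matplotlib 3.10.9.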

Additional observations from a re-analysis of the deposited data

How the results depend on the processing

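Quantile normalisation and median centring moved no member's difference by more than 1 SD of its replicates. They could move it little, since RMA had already quantile-normalised the arrays, whose medians ran from 5.20 to 5.24. The other alternatives also say little about the size of a difference. Those that change only the variance, the block or the genes tested leave it as it is, and leaving out 1 of 2 arrays cannot move it by more than 1 SD. Ptafr had no value without the dimmest genes. The number of genes called did change: from 9 (6 higher, 3 lower) to 31 (16 and 15) with median centring, 20 when only the brighter 13291 genes were tested, and 479 with robust variances and an intensity trend, while quantile normalisation gave 9 (7 and 2). The cause was not tested. That trend fit called 2 of the 10 members, Lpcat2 and Pafah2, against 2.40% of all genes. Of the 100 pathway genes it called 4, Pla2g7, Ptger4, Ptgfr and Gdpd1, against the same share. By limma with a replicate block, 0 genes and 0 members passed (1468 genes and 3 members unadjusted); the fit has 1 residual degree of freedom. Deviations of same-numbered arrays correlated at -0.102. This single value cannot show whether the samples were paired, and the labels do not say. A crossed pairing, chosen after seeing the data, also gave 0 genes and 0 members (2105 and 4 unadjusted). Leaving out each array gave 0 to 0 genes and 0 to 0 members by limma (1329 to 1663 genes and 2 to 3 members unadjusted), with Lpcat2 at 2.06 to 2.26. Those fits set 1 array against 2 and take the lone array to vary like the other group, with 1 residual degree of freedom, so a count of 0 says little about stability.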
